A study of Mus musculus with 28 samples.

Results

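The baseline transcriptome described here is that of the striatum of placebo-treated mice. Its members were the libraries whose title begins with placebo, which made 12 of the 28 libraries of the series, 8 from batch 1 and 4 from batch 2. The mice were of the inbred C57BL/6J strain, bred at UNC and a few generations removed from Jackson Laboratory stock, and the 12 described here had been given placebo in a study of chronic haloperidol, an antipsychotic that blocks dopamine D2 receptors. Each library came from a separate mouse. No genetic alteration is labelled, and the sources used here give neither the age or sex of the mice nor the length and route of placebo treatment. Total RNA of the striatum was made into TruSeq libraries, so every value is an average over all cell types of the dissected tissue. The haloperidol libraries were not analysed here.

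The striatum is the input station of the basal ganglia. Most of its neurons are spiny projection neurons, which use GABA and fall into a direct pathway class marked by the dopamine D1 receptor, substance P and dynorphin, and an indirect pathway class marked by the dopamine D2 receptor, an adenosine receptor and enkephalin. Sparse interneurons that use acetylcholine or GABA, glia and blood vessels make up the rest. The cortex lies above the striatum and the lateral ventricle, with its ependymal lining and choroid plexus, lies beside it, so RNA of these neighbours can enter a dissection.

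Levels are given as scaled FPKM. FPKM is a fragment count divided by transcript length and by library size, summed here over the transcripts of a gene, and each library was divided by a size factor between 0.920 and 1.03 so that the typical gene has the same level in all libraries. The unit is per length, so levels of different genes are set side by side here, but a bias by transcript length or annotation was not removed. In bulk tissue, fewer cells of a type and less RNA per cell cannot be told apart.

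All 5 striatal markers were detected in every mouse, and their order was nearly the same from mouse to mouse. Ppp1r1b, which encodes DARPP-32, the dopamine- and cAMP-regulated inhibitor of protein phosphatase 1, had a mean of 916 ± 256 scaled FPKM (SD, n = 12) and was rank 37 among 22526 genes with a transcript of at least 300 bases. Penk, the enkephalin precursor of indirect pathway neurons, had 754 ± 205 (SD, n = 12) and was rank 56. Tac1, the precursor of substance P in direct pathway neurons, had 139 ± 36 and was rank 558. Adora2a, the adenosine receptor of indirect pathway neurons, had 86.1 ± 21.5 and was rank 920, and Drd2, the dopamine D2 receptor and the target of haloperidol, had 71.6 ± 17.4 and was rank 1150. The tissue label thus stood beside high levels of its defining RNAs in all 12 libraries.

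Promoter windows from RefSeq (build GRCm38.p6, 250 bases before to 50 after the gene start) were found for 2 of the 5 markers, Drd2 and Tac1, and are shown because these genes stand for the indirect and the direct pathway. The Drd2 window lies at chr9:49340153-49340452 and the Tac1 window at chr6:7554811-7555110, both on the plus strand. Capitals mark matches, on either strand, to 5 motifs that were searched: the cAMP response element TGACGTCA, its half-site CGTCA, the GC box GGGCGG, the TATA box TATAAA and the E-box CACGTG. The half-site is contained in the full element, and no matches overlapped in these windows.
Drd2: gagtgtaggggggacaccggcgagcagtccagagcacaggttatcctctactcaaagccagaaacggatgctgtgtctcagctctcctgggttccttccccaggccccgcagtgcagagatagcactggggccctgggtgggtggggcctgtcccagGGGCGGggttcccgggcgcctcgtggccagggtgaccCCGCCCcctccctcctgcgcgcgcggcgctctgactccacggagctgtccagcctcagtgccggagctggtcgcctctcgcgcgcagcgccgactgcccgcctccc
Tac1: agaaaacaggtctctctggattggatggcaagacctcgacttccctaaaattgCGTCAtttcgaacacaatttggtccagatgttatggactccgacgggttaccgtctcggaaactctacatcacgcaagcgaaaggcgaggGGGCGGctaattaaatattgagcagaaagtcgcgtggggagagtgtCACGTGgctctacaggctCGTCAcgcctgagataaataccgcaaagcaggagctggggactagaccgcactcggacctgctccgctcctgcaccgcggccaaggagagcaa
The Drd2 window held 2 GC boxes and no match to the other motifs. The Tac1 window held 2 half-sites, 1 GC box and 1 E-box. Of 32851 windows of this length, 35.7% held a GC box, 20.8% the half-site, 13.6% the TATA box, 7.15% the E-box and 1.79% the full cAMP response element. These matches are letters in a window and were not tested for binding.

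In the annotation used by the files (build mm9), Ppp1r1b lies on chromosome 11 from 98210052 to 98219109 with 7 exons, and 164 of its exon bases overlap a gene on the opposite strand. Penk lies on chromosome 4 from 4060683 to 4065592 with 2 exons, and Tac1 on chromosome 6 from 7505071 to 7512973 with 7 exons. Adora2a lies on chromosome 10 from 74779688 to 74797533 with 3 exons, and Drd2 on chromosome 9 from 49148767 to 49215319 with 8 exons. These 4 genes share no exon base with another listed gene. The libraries are labelled strand-specific, and nothing in the sources says that the quantification used strand. The part of this overlap in the Ppp1r1b level was not tested.

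Ppp1r1b ranged from 647 scaled FPKM in batch 1 mouse 8 through a median of 819 to 1403 in batch 1 mouse 12. In batch 2 it was 736, 684, 895 and 845 in mice 22, 26, 28 and 32. All batch 2 values lay inside the range of batch 1, whose highest 3 values came from mice 12, 20 and 2. Penk ranged from 536 through 649 to 1262, with its lowest and highest values in the same mice as Ppp1r1b. Its batch 2 values of 633, 663, 794 and 626 again lay inside the batch 1 range. Enkephalin precursor RNA therefore differed 2.35-fold between the extreme mice. The quantification interval that accompanies each FPKM had a median half-width of 2.40% of the value, which does not cover dissection, RNA quality or library preparation.

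Tac1 ranged from 106 through 136 to 241 scaled FPKM. In batch 2 it was 108, 110, 146 and 134. Mouse 12 of batch 1 stood above all others, since the next highest library was at 152. Adora2a ranged from 62.7 through 79.1 to 133, with 76.5, 70.5, 93.2 and 88.9 in batch 2. Drd2 ranged from 39 in batch 1 mouse 4 through 68.6 to 109 in mouse 12, with 58.2, 62.0, 72.9 and 75.9 in batch 2. Mouse 12 was thus the highest library for all 5 markers. Median interval half-widths were 6.73% for Tac1, 5.71% for Adora2a and 8.13% for Drd2.

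**Figure D1:**
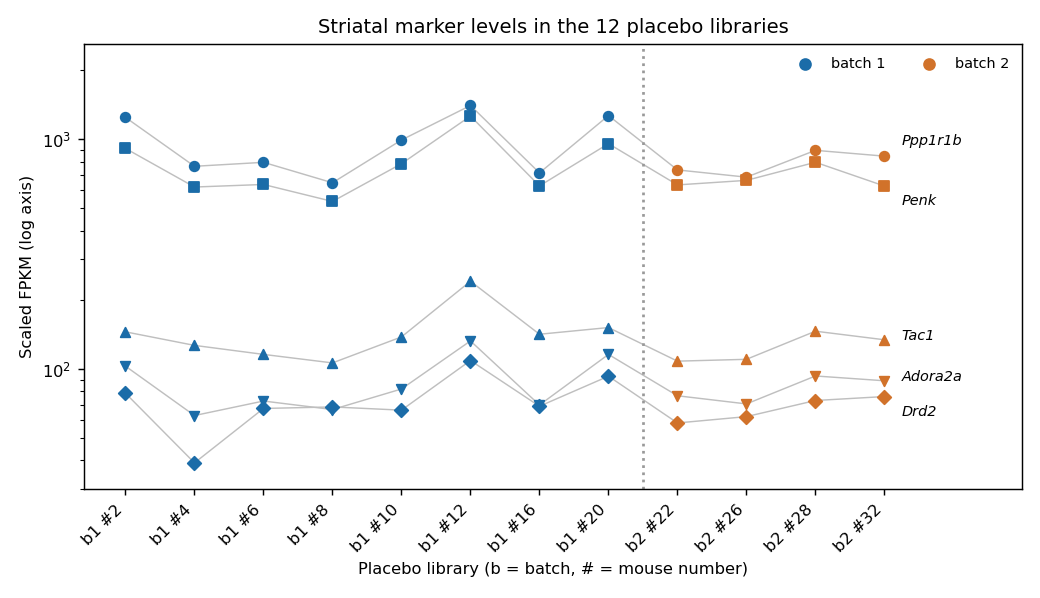
Scaled FPKM (log axis) of the 5 striatal markers in each of the 12 placebo libraries, with batch 1 in blue, batch 2 in orange and grey lines joining the points of a gene. Mouse 12 of batch 1 has the highest level of each marker, up to 1403 for Ppp1r1b, and the batch 2 libraries lie inside the batch 1 range.

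Neighbours in this order were compared within each library, by flipping the sign of the log2 ratio over all 12 libraries in a 2-sided exact permutation test, with p-values adjusted over the 4 pairs. Ppp1r1b exceeded Penk in 12 of 12 libraries, by 0.27 ± 0.12 on the log2 scale (SD, n = 12; exact permutation adjusted p = 0.000651). Penk exceeded Tac1 in 12 of 12 libraries by 2.43 ± 0.17, a 5.40-fold ratio, and Tac1 exceeded Adora2a in 12 of 12 by 0.69 ± 0.20, both with the same adjusted p from the exact permutation test. Adora2a exceeded Drd2 in 11 of 12 libraries by 0.27 ± 0.19 (exact permutation adjusted p = 0.00146), with the exception in batch 1. No neighbouring pair failed the test, but the order was taken from the mean levels in these same 12 libraries, which favours that outcome. The raw p of 0.000488 behind the other 3 pairs is the smallest that 12 libraries allow. The test asks whether a ratio repeats between mice, and it cannot measure a bias in the FPKM of a gene that all libraries share.

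The other dopamine receptors and opioid precursors lay lower. Drd1a, the dopamine D1 receptor of direct pathway neurons, had a mean of 39 ± 8.80 scaled FPKM (SD, n = 12; rank 2122), below Drd2, and it ranged from 22.6 in batch 1 mouse 4 to 52.4 in mouse 12. Pdyn, the dynorphin precursor, had 18.8 ± 9.17 (SD, n = 12; rank 4025) and ranged from 4.68 to 31.8. Its 3 lowest values, 4.68, 6.19 and 6.43, came from batch 1 mice 4, 10 and 2, and every other library had at least 17.5. Drd3, the dopamine D3 receptor, was listed at 0 in 5 libraries and reached at most 0.545.

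Ranks were also taken within the single libraries. Ppp1r1b lay between rank 26 and rank 122 in these, Penk between 30 and 154, Tac1 between 324 and 783, Adora2a between 619 and 1555, and Drd2 between 745 and 2358. With batch 1 alone the mean rank of Ppp1r1b was 43, and with batch 2 alone it was 34. For Drd2 these ranks were 1156 and 1129.

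**Figure D2:**
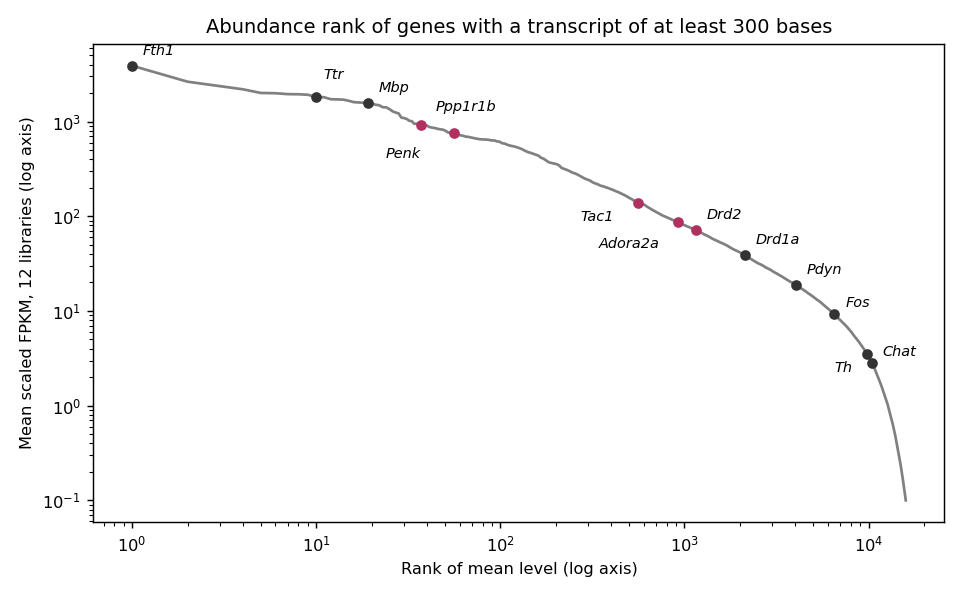
Mean scaled FPKM over the 12 libraries (log axis) against abundance rank (log axis) for genes with a transcript of at least 300 bases, with the 5 markers in red and other named genes in black. Ppp1r1b at rank 37 and Penk at rank 56 sit among the most abundant genes, while Drd2 sits at rank 1150.

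The most abundant RNAs of the placebo striatum were of many kinds. Of the 25 highest genes, 6 belonged to the ribosomal protein list, 1 each to the oligodendrocyte, choroid plexus and heat shock lists, and 16 to no list. Of 23309 gene symbols, 784 had a mean of at least 100 scaled FPKM, 35 had at least 1000, and 4667 were listed at 0 in all 12 libraries. The 25 most abundant genes held 10.4% of the summed level, and 1000 genes held 61.1%. Fth1, the ferritin heavy chain, led with 3889 ± 1539 (SD, n = 12) and was rank 1 or 2 in every library. It was followed by Cst3 (cystatin C, 2637), Rpl38 (2365) and Rplp1 (2192), which are ribosomal proteins, and Gapdh of glycolysis (2005). Calcium-handling genes in the top 25 were Pcp4 (1993), Calm2 (calmodulin, 1949) and Nrgn (neurogranin, 1552).

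The same 25 genes included Apoe (1723), the main lipid carrier of the brain, Mbp (1581), a myelin structural protein, Hspa8 (1413), a constitutive chaperone, and Ttr (1816), the thyroxine carrier made by choroid plexus. Tmsb4x (1943) encodes an actin-binding peptide, Ppia (1809) cyclophilin A, Ckb (1591) brain creatine kinase, Aldoa (1581) the glycolytic aldolase A and Eef1a1 (1417) a translation elongation factor. Rps29, Rpl41, Rps15 and Rps21 were the other ribosomal proteins. Gm9846, at 1659, shares 345 same-strand exon bases with Rps27, so the division of fragments between these symbols is uncertain. Sepw1 had 1604 and Usmg5 had 1506. Of the 25 genes, 13 were in the top 25 of every library. Among the top 100 genes, 28 were ribosomal proteins and 15 were oxidative phosphorylation subunits.

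Abundant genes differed in their spread between mice. Calm2 had 1949 ± 184 scaled FPKM (SD, n = 12) between 1729 and 2351, but 2364 ± 854 after quantile normalization. Ttr had 1816 ± 2023 between 17.7 and 7741. Rplp1 ranged from 1122 to 4334, and Mbp from 1046 to 2028.

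Very short annotated genes were kept out of the ranks because FPKM is unstable for them. The most extreme was Mir703, a microRNA hairpin gene of 109 bases, whose listed mean of 3979 would have made it rank 1. Its hairpin in RefSeq (GRCm38.p6, chr5:98475556-98475664, minus strand) and its mature arm are shown because of that place, with the mature arm in capitals in the first line and the seed, bases 2 to 8, in capitals in the second.
Mir703 hairpin: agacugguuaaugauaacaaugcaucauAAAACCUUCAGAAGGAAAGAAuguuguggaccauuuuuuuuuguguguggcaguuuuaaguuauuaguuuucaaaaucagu
mmu-miR-703: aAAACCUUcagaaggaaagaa
Mir703 was listed at 0 in batch 2 mouse 22 and at 8420 in batch 1 mouse 2. TruSeq RNA libraries are not made to capture mature microRNAs, so these values were not read as microRNA levels. In all, 783 genes had no transcript of 300 bases, and 31 of them had a mean FPKM of at least 1.

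Markers of the projection neurons were present throughout. All 20 genes of the general spiny projection neuron list had a mean of at least 5 scaled FPKM, with a median of 141, and their summed level ranged from 2568 through 3233 to 4860. After Ppp1r1b, its most abundant members were Pde1b, a calcium-dependent phosphodiesterase (362 ± 84.5, SD, n = 12), Arpp21, a cAMP-regulated phosphoprotein (255 ± 56.3), and Gng7, a G protein subunit of the striatal adenylyl cyclase complex (222 ± 45.7). Arpp21 shares 291 exon bases with the opposite strand. The indirect pathway list summed to between 701 and 1549 and the direct pathway list to between 221 and 414, with mouse 12 of batch 1 highest in both.

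Genes listed for interneurons ranged from abundant peptides to scarce enzymes, and which cells their RNA came from, as for Cck, was not tested. Sst, the somatostatin precursor, had 586 ± 230 scaled FPKM (SD, n = 12; rank 105), Cck, cholecystokinin, 324 ± 152, Npy, neuropeptide Y, 259 ± 92.3, and Pvalb, the calcium buffer parvalbumin, 92.4 ± 39.9. Chat, the acetylcholine-synthesising enzyme of cholinergic interneurons, had 2.83 ± 1.14 and ranged from 0.692 to 3.96. The vesicular transporter Slc18a3 had 3.04 and the choline transporter Slc5a7 had 2.86, so the cholinergic list of 6 genes summed to only 11.5 to 22.5. Per length, Sst exceeded Pvalb and Chat in mean level. Th, the rate-limiting enzyme of dopamine synthesis, was at 3.55, and the dopamine transporter Slc6a3 was listed at 0 in 3 libraries and had a mean of 0.05.

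Glial lists differed in spread. The spread of a gene between mice was taken as the within-batch SD, the SD of log2(scaled FPKM + 0.5) around the batch means, and 752 of 8687 genes with mean FPKM of 5 or more (8.66%) had an SD of at least 0.5. Of 12 astrocyte genes, 0 reached that spread, and the list summed to between 857 and 1119, led by the aldolase Aldoc (483) and the glutamate transporter Slc1a2 (134). Of 11 oligodendrocyte genes, 0 reached it, and they summed to between 2387 and 4035, led by Mbp. The median SDs of these lists, 0.25 and 0.24, lay at the 0.25 of all genes, and at the share of all genes lists of this size would hold few genes of that spread. The microglial list had 4 of 11 eligible genes at that spread, led by the complement subunits C1qb (84.4) and C1qa (74.9), and 0 of 11 without batch 1 mice 2, 4 and 10. Of the vascular lists, endothelium had 1 of 6 genes at that spread and mural cells 3 of 4.

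RNA typical of neighbouring tissue was present in every library and uneven for the ventricle. The choroid plexus list of 12 genes summed to 64.5 in batch 1 mouse 4, to a median of 1843 and to 8120 in batch 1 mouse 2, a 126-fold range. Ttr made up most of the sum in 11 of 12 libraries and less in mouse 4. Ttr was 17.7 in mouse 4 and 7741 in mouse 2, and in batch 2 it was 2157, 1926, 171 and 335. Folr1, the folate receptor of choroid plexus epithelium, ranged from 0.548 to 49.4 with its extremes in the same mice. Ttr, Folr1, Enpp2 and Clic6, the 4 most abundant genes of the list, were above 0 in every library. The ependymal list summed to between 43.6 and 247, again highest in mouse 2, and the hemoglobin-led blood list to between 36.3 and 245.

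The cortical list summed to between 254 and 499. Slc17a7, the vesicular glutamate transporter of cortical neurons, had 225 ± 55.4 scaled FPKM (SD, n = 12), and Neurod6, a transcription factor of cortical excitatory neurons, had 19.9 ± 7.97 and ranged from 8.28 in batch 1 mouse 12 through 19.7 to 33.7 in batch 2 mouse 22. Mouse 12, which was highest for all 5 striatal markers, was the lowest for Neurod6 and for the cortical sum. Oxt, the oxytocin precursor of hypothalamic neurons, ranged from 0.353 through 8.70 to 128, with 128 in mouse 2 and 99.1 in mouse 10 of batch 1. Whether these values come from dissection was not tested.

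**Figure D3:**
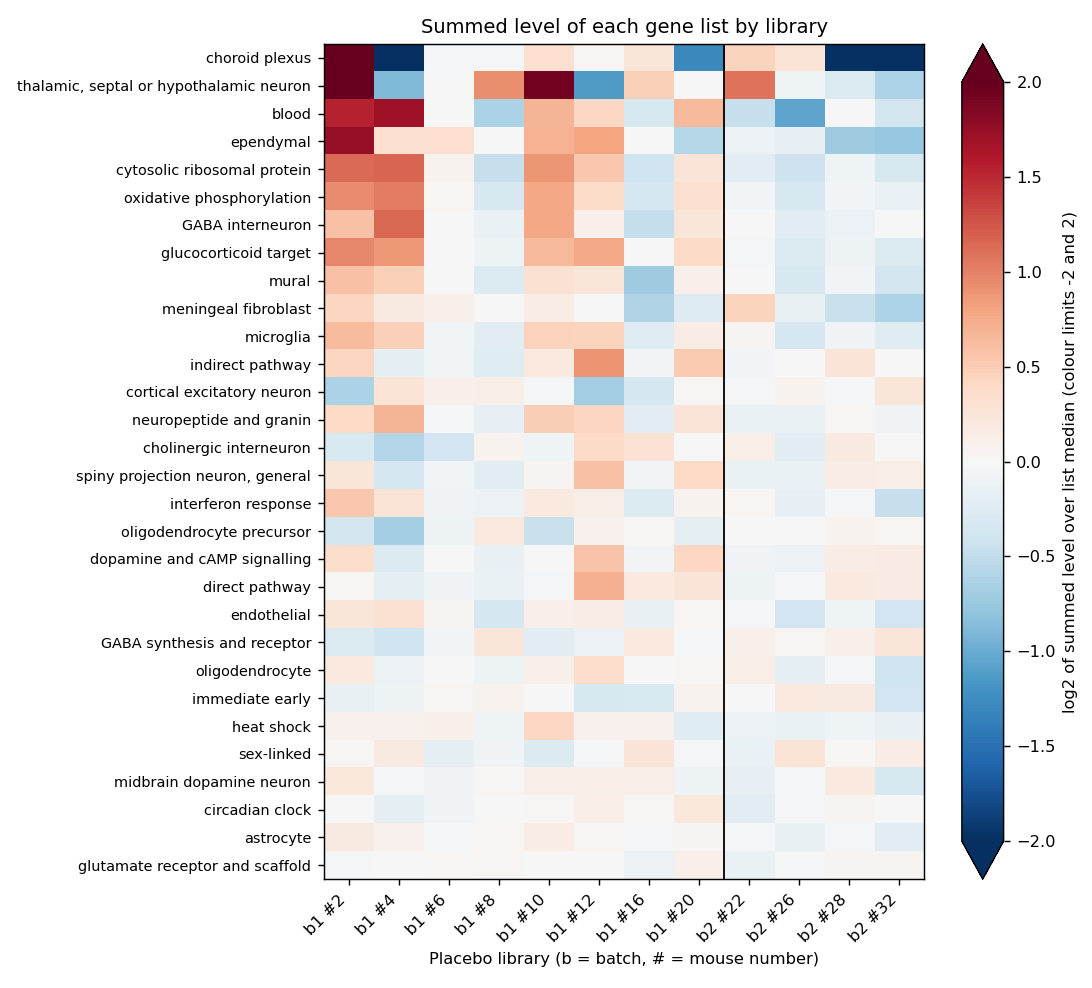
Log2 of the summed scaled FPKM of each gene list in each library over the median of that list, with lists ordered by spread, batch 1 left of the line and colours limited at -2 and 2. Choroid plexus at the top runs from 64.5 to 8120, while the glutamate receptor list at the bottom runs from 1489 to 1743.

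The 5 markers varied together between mice. Over the 10 marker pairs, Pearson r of log2 levels ran from 0.675 to 0.945 with a median of 0.836 over 12 libraries, and all 10 passed a permutation test after adjustment over 13 relations (largest adjusted p = 0.0327). Ppp1r1b and Penk had r = 0.945 (permutation p = 1e-05, the smallest that 100000 resamples give; adjusted p = 6.5e-05) and rho = 0.811 (permutation p = 0.00246, adjusted p = 0.0064). The same r was 0.908 without the 2 libraries farthest from the median, and 0.972 within batch 1. Ppp1r1b and Adora2a had r = 0.929 (permutation p = 2e-05, adjusted p = 8.67e-05) and rho = 0.888 (permutation p = 0.00018, adjusted p = 0.00117). All genes of a library share its dissection, RNA quality, depth and scaling, and the share of other gene pairs that would pass was not counted.

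Of the relations with Drd2, that with Adora2a held and the other 3 rested on few mice. Drd2 and Adora2a had r = 0.852 (permutation p = 0.0001, adjusted p = 0.000186) and rho = 0.790 (permutation adjusted p = 0.00711). The same r was 0.821 without the 2 farthest libraries, 0.851 within batch 1 (exact permutation adjusted p = 0.00156) and 0.776 to 0.897 without 1 library each. Ppp1r1b and Drd2 had r = 0.696 (permutation p = 0.00696, adjusted p = 0.00905) and rho = 0.678 (permutation adjusted p = 0.0241), but r was 0.379 without the 2 farthest libraries. For Penk and Drd2, r fell from 0.716 (permutation p = 0.01, adjusted p = 0.0118) to 0.359, and rho was 0.601 (permutation adjusted p = 0.0453). Tac1 and Drd2 had r = 0.675 (permutation p = 0.0302, adjusted p = 0.0327) and rho = 0.769 (permutation adjusted p = 0.00711), and was the pair that did not pass within batch 1 (r = 0.653, exact permutation adjusted p = 0.118). Without batch 1 mouse 12 these 3 relations did not pass, with r of 0.560, 0.545 and 0.453. Tac1 and Drd2 also did not pass without batch 1 mouse 20 (r = 0.671) or batch 2 mouse 22 (r = 0.654). Batch 2 holds 4 libraries, too few for a value of its own.

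Ppp1r1b ran opposite to the cortical gene Neurod6, with r = -0.819 (permutation p = 0.00116, adjusted p = 0.00168) and rho = -0.622 (permutation p = 0.0343, adjusted p = 0.0405). The same r was -0.682 without the 2 farthest libraries and -0.849 within batch 1 (exact permutation adjusted p = 0.0188). This relation depended on the scaling: r was -0.576 after rescaling each library to a common sum (permutation adjusted p = 0.0508) and -0.312 after quantile normalization (permutation adjusted p = 0.328). Ppp1r1b and Ttr had r = 0.195 (permutation adjusted p = 0.562) and rho = 0.035 (permutation adjusted p = 0.922). Ttr and Folr1 had r = 0.958 (permutation p = 1e-05, adjusted p = 6.5e-05) and rho = 0.986 (permutation p = 1e-05, adjusted p = 0.00013). The same r was 0.982 without the 2 farthest libraries and 0.964 within batch 1.

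**Figure D4:**
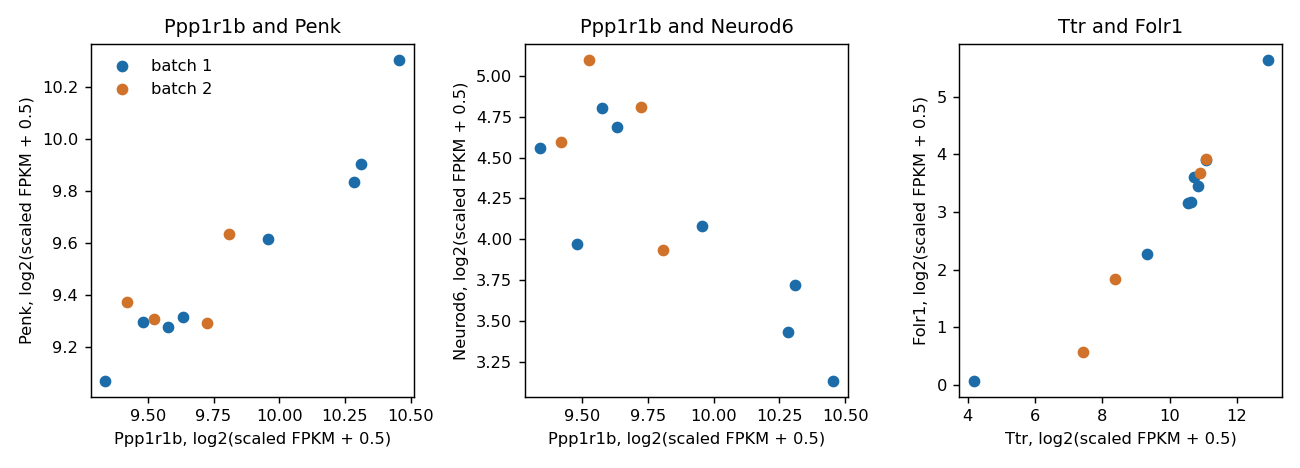
Log2(scaled FPKM + 0.5) of 3 gene pairs in the 12 libraries, batch 1 in blue and batch 2 in orange. Ppp1r1b rises with Penk (r = 0.945), runs against Neurod6 (r = -0.819), and the choroid plexus genes Ttr and Folr1 lie along a line (r = 0.958).

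The median within-batch SD of the 8687 genes was 0.25. The markers lay above it, with 0.37 for Ppp1r1b, 0.36 for Penk, 0.32 for Tac1, 0.37 for Drd2 and 0.35 for Adora2a. Without batch 1 mice 2, 4 and 10, the 3 batch 1 libraries of highest FPKM sum, 184 of these genes (2.12%) reached 0.5 in place of 752, an alternative chosen after seeing the data. The markers then had SDs of 0.40, 0.40, 0.37, 0.27 and 0.37, while the median over all genes was 0.19.

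The most variable genes fell into unlike sets. Of the 20 with the largest SD, 17 had no transcript of 300 bases, mostly microRNA and small nucleolar RNA genes. The other 3 were Sept7, a cytoskeletal septin, listed at 0 in 6 libraries and up to 194, Prkar1b, a regulatory subunit of protein kinase A, listed at 0 in 2 libraries and up to 310, and Ndufs5, a complex I subunit that shares 484 same-strand exon bases with another gene. Among genes of at least 300 bases above 0 in every library, named after their values were seen, Ttr (SD 2.36), Oxt (2.33), Folr1 (1.58), the inward rectifier channel Kcnj13 (1.45) and Kl, the klotho protein of choroid plexus (1.34), were among the most variable. Rps27 (2.49) and Rpl34 (1.34) were too, and each shares same-strand exon bases with another symbol.

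The least variable gene was Rac1, a small GTPase of the actin cytoskeleton, with an SD of 0.03 and 150 ± 6.5 scaled FPKM (SD, n = 12). It ran from 141 through 152 to 159, and since the SD of 0.03 is taken around batch means it leaves out the batch difference, with 154 ± 3.28 in batch 1 (SD, n = 8) and 142 ± 1.20 in batch 2 (SD, n = 4; limma adjusted p = 0.273). The other 9 of the 10 steadiest were the translation factor Eif3c, the autophagy protease Atg4b, the membrane contact protein Vapa, Paip2, a repressor of translation that binds poly(A)-binding protein, the phosphatase Mtmr7, the mitochondrial enzyme Dlst, the ubiquitin ligase Znrf1, the tRNA synthetase Eprs and the glucosidase subunit Ganab. Their SDs were 0.04 or 0.05. None of these 10 belonged to a marker list, but the share of all genes in such a list was not counted, so this is not read as a trait of steady genes.

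Ribosomal protein RNAs differed between mice as a group. Their summed level was 26923 in batch 1 mouse 8, had a median of 36997 and reached 82922 in batch 1 mouse 4, a 3.08-fold range. Mice 4, 2 and 10 of batch 1 were the 3 highest, with 82922, 81167 and 68067, and batch 2 ran from 27690 to 34986. An SD of at least 0.5 was reached by 50 of 79 ribosomal protein genes, beside 8.66% of all genes, and by 3 of 79 without mice 2, 4 and 10. Oxidative phosphorylation genes did likewise, with 27 of 75 at that spread and 1 of 75 without those mice, and sums between 18190 and 46447.

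These libraries differed by transcript length. Genes with a longest transcript of 300 to under 600 bases had a median SD of 0.53, those of 2000 to under 3000 bases 0.20, and those of 4500 bases or more 0.26. In mice 2, 4 and 10, genes of 300 to under 600 bases were higher than in the other 5 batch 1 mice by a median of 0.91 log2, and genes of 4500 bases or more were lower, with a median difference of -0.41. RNA integrity number, or RIN, in the labels was 7.58, 7.08 and 7.45 in these mice, and 7.08 to 8.97 over the 12. Over the 12 libraries RIN ran opposite to the FPKM sum with r = -0.742 (permutation p = 0.00552) and rho = -0.769 (permutation p = 0.0047). The same r was -0.816 without the 2 farthest libraries and -0.882 within batch 1 (exact permutation p = 0.00377). The part of RNA quality in these length differences was not tested.

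**Figure D5:**
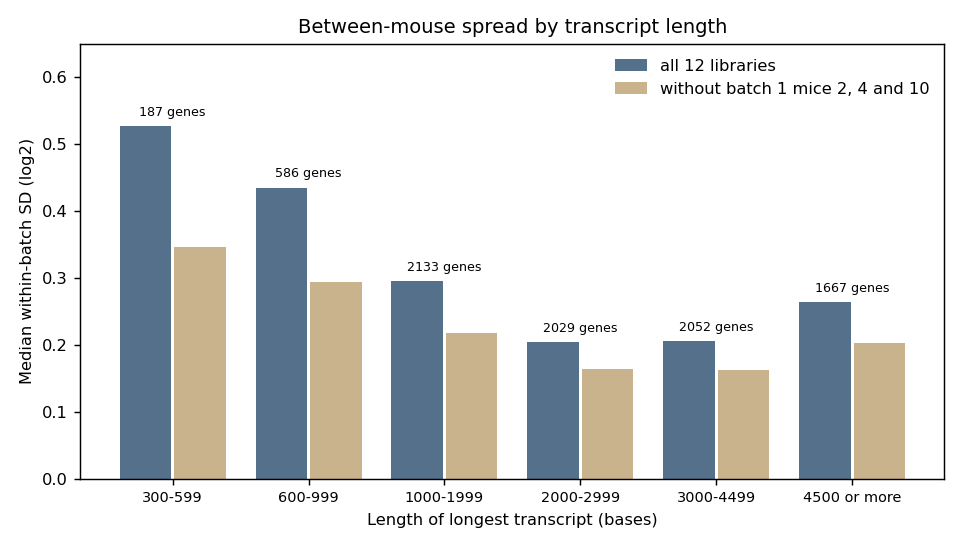
Median within-batch SD (log2) of genes grouped by the length of their longest transcript in bases, over all 12 libraries and without batch 1 mice 2, 4 and 10, with the number of genes above each pair of bars. The median falls from 0.53 for 300 to under 600 bases to 0.20 for 2000 to under 3000 bases and is 0.26 for 4500 bases or more, and each bar is lower without the 3 libraries.

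Pde10a, Egr3, Pdyn and Chat, named here after their values were seen, had low values in the same 3 mice. Pde10a, a phosphodiesterase that breaks down cyclic nucleotides in projection neurons, was 19.5, 12.1 and 19.2 scaled FPKM in mice 2, 4 and 10 and at least 44.1 elsewhere. Its SD was 0.81 over 12 libraries and 0.34 without them. Egr3, an activity-induced transcription factor, was 3.48, 2.66 and 3.84 in these mice and at least 11.8 elsewhere. For Pdyn the SD was 0.91 and then 0.34, and for Chat 0.61 and then 0.22. These genes were set together for their low values in these mice, so a lower SD without the mice follows from that choice. The SDs of Ppp1r1b, Penk, Tac1 and Adora2a did not fall without them. In the general projection neuron list 1 of 20 genes had an SD of at least 0.5, and 0 of 20 without these mice. Over all genes the shares were 8.66% and 2.12%, so this drop was not particular to the list. In the immediate early list 3 of 14 did, with or without these mice. The immediate early sums of mice 2, 4 and 10 were 385, 395 and 428, inside the range of 328 to 487 over the 12 libraries.

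Immediate early genes, which report recent neuronal activity, were otherwise moderate. Egr1 led them with 102 ± 15.6 scaled FPKM (SD, n = 12), and Fos had 9.21 ± 2.31 between 6.34 and 13.3. Arc, a synaptic plasticity gene, ranged from 23.2 in batch 2 mouse 32 and 40.6 in batch 1 mouse 12 through a median of 92.9 to 114. Its SD of 0.71 did not fall without mice 2, 4 and 10, where it was 0.79. Receptor and scaffold genes of glutamate synapses had the narrowest relative range of summed level among the 30 lists, 1489 to 1743 or 1.17-fold. The list was led by the kinase subunits Camk2a (382 ± 33.1) and Camk2b (283 ± 31.5). Gene by gene it was not steadier than the rest, with a median within-batch SD of 0.29 beside 0.25 for all genes. Of its 20 eligible genes, 2 had an SD of at least 0.5, beside 8.66% of all genes. Gad1, which makes GABA, had 144 ± 25.2.

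RNA of the sex chromosomes gave a check of the libraries. Xist, which is expressed from the inactive X chromosome, was at most 0.061 scaled FPKM in the 12 libraries. The Y-linked genes Eif2s3y, between 12.4 and 24.6, and Ddx3y, with a mean of 7.25 ± 2.05 (SD, n = 12), were above 0 in all of them. No library stood apart in this respect.

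Batch 2 was compared with batch 1 to keep that label visible, with limma on log2(scaled FPKM + 0.5). No gene of 12775 tested (0%) passed a Benjamini-Hochberg adjusted p of 0.05, and the smallest adjusted p was 0.200. At an unadjusted p under 0.05 there were 2827 genes (22.1%), 1492 higher and 1335 lower in batch 2. That count moved when single libraries were left out, which also leaves fewer libraries for the test. It was 949 without batch 2 mouse 32, 1488 without mouse 22, 1550 without mouse 26 and 2315 without mouse 28. Without batch 1 mice 2, 4, 10, 12 and 20 it was 1629, 1664, 1520, 1858 and 2284. Without batch 1 mice 6, 8 and 16 it was 2903, 5352 and 5002. After rescaling to a common sum, which moved the median of all genes by 0.22 log2 from 0, the split was 2307 higher and 514 lower. An exact Wilcoxon test also called 0, with 1874 at an unadjusted p under 0.05. When limma weighted libraries by their estimated quality it called 2188 genes higher and 2144 lower, and with RIN as a covariate 226 genes were at an unadjusted p under 0.05. RIN itself was higher in batch 2, at 8.43 ± 0.56 (SD, n = 4) against 7.67 ± 0.35 (SD, n = 8; exact permutation p = 0.0141), though this was lost without batch 2 mouse 22 (exact permutation p = 0.0545).

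None of the 5 markers passed the batch test. The log2 differences, batch 2 minus batch 1, were -0.26 for Ppp1r1b, -0.17 for Penk, -0.20 for Tac1, -0.09 for Drd2 and -0.06 for Adora2a, with standard errors between 0.18 and 0.22 (limma adjusted p from 0.401 to 0.846). The sign was not stable: after quantile normalization it was positive for all 5. No marker thus differed between batches by more than the spread between mice in this test.

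The genes of smallest p shared no change that passed the test. Nts, the neurotensin precursor, had 22.8 ± 6.46 scaled FPKM in batch 1 (SD, n = 8) and 7.88, 10.2, 11.8 and 4.88 in batch 2, without overlap, and a log2 difference of -1.37 ± 0.24 (SE; limma adjusted p = 0.223). Insig1, a sterol sensor that restrains cholesterol synthesis, had 17.9 to 27.7 in batch 1 and 38.3, 29.4, 33.4 and 34.0 in batch 2. Aacs, which activates acetoacetate for lipid synthesis, had 7.72 to 10.9 and then 11.6, 11.8, 12.2 and 12.7. For these 3 genes the batches did not overlap, which their choice by smallest p favours. The share of all genes without overlap was not counted. None of the 3 passed this test, though each did with libraries weighted by quality (limma adjusted p = 0.0272), where 4332 of 12775 genes passed.

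The remaining genes named for the batch comparison were Nxpe4, Zfp711 and Dgki, a diacylglycerol kinase, with higher means in batch 2, and Gm694, Itpk1, Rpph1, Mthfs and Cenpa with lower means. Itpk1, an inositol phosphate kinase, had 17.4 to 18.3 in batch 2 against 21.8 to 29.4 in batch 1. Gm694 had a log2 difference of -1.70 ± 0.26 (SE; limma adjusted p = 0.200), and the adjusted p was 0.0477 without batch 1 mouse 8, 0.0396 without batch 1 mouse 16, 0.0121 after rescaling to a common sum, 0.000514 with quality weights and 0.000231 with log2 of the FPKM sum as a covariate (limma in each case). Rpph1, the RNA component of RNase P, was listed at 0 in all 4 batch 2 libraries and at 0.537 to 8.44 in batch 1, and it passed with a pseudocount of 0.1 (limma adjusted p = 0.0394) and with quality weights (limma adjusted p = 0.0272). With quality weights Nxpe4, Zfp711, Dgki, Itpk1, Mthfs and Cenpa passed too, at a limma adjusted p of 0.0261 for Mthfs and 0.0272 for the others.

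Lists described the batch comparison by count. Of 79 ribosomal protein genes, 34 had an unadjusted p under 0.05 and lower values in batch 2, and 0 higher, beside 10.5% lower and 11.7% higher over all genes, and their median log2 difference was -0.63 against -0.01 for all genes. With RIN as a covariate that median was -0.05. The ependymal list had 5 of 8 genes lower at that p, with a median of -0.88. That median was -0.49 with log2 of the FPKM sum as a covariate and -0.86 with RIN as a covariate. After rescaling to a common sum it was -0.64, but there the median of all genes was 0.22 in place of -0.01. The neuropeptide and granin list had 7 of 20 lower, with a median of -0.36 that was -0.12 with RIN as a covariate, -0.10 with the FPKM sum as a covariate and -0.08 after quantile normalization. Glutamate receptor and scaffold genes had 8 of 27 higher and 3 lower, with a median of 0.19, or 0.10 with RIN as a covariate. None of these genes passed the adjusted limma test, and the batches differ in RIN, so batch and RIN cannot be told apart from these counts.

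The 12 libraries differed in depth and quality in ways that bear on the values above. Relative depth, from the coverage the files list against FPKM, ran from 0.429 to 1.58 of the mean library, and the median interval half-width over genes from 12.6% to 22.7%. FPKM sums ran from 383563 to 556113. Pairs of libraries had correlations across genes of 0.896 to 0.984, and no pair held identical values.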

How the data were processed

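Striatal RNA of 12 placebo mice was sequenced as 1 library per mouse. Per the submitters' processing notes, TopHat2 2.0.6 and Cufflinks were used with build mm9. The deposited values are FPKM per transcript, as the authors made them, with an interval and coverage beside them in the attribute text of each line. Fragment counts are not used here, so depth is known only in relative terms.

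FPKM were summed over 30563 transcripts to 23309 gene symbols and divided by median-of-ratios size factors. Analyses used Python 3.11.15, SciPy 1.17.1, R 4.3.3 and limma 3.58.1, on log2(scaled FPKM + 0.5), so fold changes of low genes are understated. limma (mean-variance trend, 2-sided, Benjamini-Hochberg at 0.05) tested genes of mean FPKM at least 1, and spread used genes of mean at least 5. The limma fit was tried on the real libraries with shuffled batch labels and changes added to random genes, with an outcome not reported here. The batch and RIN come from the labels. P-values set a difference, a ratio or a correlation against the variation between libraries, each from a separate mouse.

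Members and the 30 gene lists were chosen with earlier results of these data known. Named genes were the 5 markers, the 25 most abundant, the 20 most and 10 least variable, 6 per direction of smallest batch p, the 4 most abundant of each list, and Drd1a, Pdyn, Drd3, Chat, Th, Fos, Xist, Ddx3y, Ttr, Folr1 and Neurod6. Some genes that this rule names are not reported here. Alternatives covered the pseudocount, the filter, the scaling, covariates, weights and leaving out each library.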

Additional observations from a re-analysis of the deposited data

Results flagged for a closer look

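In each batch the highest and lowest library was compared with its nearest neighbour, relative to the range of the batch, which by chance marks about 1 in 20 groups. Of 142 groups compared, 8 stood out, a number near what chance gives. Batch 1 mouse 12 stood above the other 7 for Tac1, at 241 against at most 152, and for the summed direct pathway list, at 414 against at most 302. Batch 1 mouse 2 stood apart for the ventricular genes: Ttr was 7741 against at most 2168, Folr1 49.4 against at most 14.5, the choroid plexus sum 8120 against at most 2321 and the ependymal sum 247 against at most 127. Batch 1 mouse 10 had a heat shock sum of 4364 against at most 3508. In batch 2, mouse 28 had an indirect pathway sum of 996 against at most 833.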

How the results depend on the processing

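The order of the 5 markers kept its direction and its call under every alternative run. No paired analysis was possible because the batches share no mouse number. Genes called higher in batch 2 numbered 0 to 0 over fits without 1 library each and 2188 with quality weights, and genes called lower 0 to 1 without 1 library each, 1 with a pseudocount of 0.1, 1 after rescaling to a common sum, 1 with log2 of the FPKM sum as a covariate and 2144 with quality weights. The number of genes with an SD of at least 0.5 was 752, and 521 to 888 without 1 library each, 1218 after rescaling to a common sum, 1375 at a minimum mean of 1, 1689 with no filter and 184 without batch 1 mice 2, 4 and 10. Batch differences of markers changed sign after rescaling to a common sum (Penk 0.074, Tac1 0.052, Drd2 0.16, Adora2a 0.19). In that setting the median of all genes was 0.22, above each of these values. Marker differences also reversed with quantile normalization (Ppp1r1b 0.21, Penk 0.29, Tac1 0.030, Drd2 0.051, Adora2a 0.11), RIN as a covariate (Tac1 0.028, Adora2a 0.11) and the FPKM sum as a covariate (Penk 0.0072, Adora2a 0.068). That of Adora2a also reversed without batch 1 mouse 12 (0.035), batch 1 mouse 20 (0.0068) or batch 2 mouse 26 (0.014), and ran from -0.12 to 0.03. Without 1 library each, r was 0.560 to 0.836 for Ppp1r1b with Drd2, 0.545 to 0.832 for Penk with Drd2 and 0.453 to 0.887 for Tac1 with Drd2. Tac1 with Drd2 also missed the threshold without batch 1 mouse 20 or batch 2 mouse 22. For Ppp1r1b with Neurod6, r was -0.576 with a common sum and -0.312 with quantile normalization. Without 1 library each, the batch difference ran from 0.585 to 0.998 for RIN, from -79108 to -55235 for the FPKM sum and from -0.87 to -0.42 for log2 relative depth. The cause was not tested. Of alternatives added after seeing the data, using deviations from batch means or residuals on log2 of the FPKM sum changed no call among the 13 relations, and leaving out batch 1 mice 4, 10 and 12, those of RIN under 7.5, left 327 genes at an unadjusted batch p under 0.05. With 1 library per mouse and relative depth only, low genes such as Drd3 and Chat are the least precise.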

Other observations

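Other gene lists gave the following background levels in the placebo striatum, as summed scaled FPKM from the lowest to the highest library. Signalling genes of the dopamine and cAMP pathway summed to 2156 to 3875, and 2 of 15 eligible genes had a within-batch SD of at least 0.5, or 0 of 15 without batch 1 mice 2, 4 and 10, beside 8.66% and 2.12% of all genes. Genes for GABA synthesis, transport and receptors summed to 701 to 1090, with 3 of 17 at that spread, led by Gad1, the receptor subunit Gabbr1 (145 ± 8.20, SD, n = 12) and the receptor subunit Gabrd (82.9 ± 23.2). Neuropeptide and granin genes summed to 2079 to 3908, with 5 of 14 at that spread and 1 of 14 without those mice. Cartpt, the precursor of a feeding-related peptide, was named after its values were seen, since it reached 65.2 in batch 1 mouse 4 against 8.07 in batch 2 mouse 32.

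Stress and timing genes were present in every library. Heat shock genes summed to 2773 to 4364 and were led by Hspa8 and Hsp90ab1 (789 ± 55, SD, n = 12, or 865 ± 235 after quantile normalization). Glucocorticoid target genes summed to 619 to 1477, with 1477, 1378 and 1184 in batch 1 mice 2, 4 and 10 and 1275 in mouse 12, and were led by the metallothioneins Mt1 (from 323 to 887) and Mt2 (291 ± 114, SD, n = 12), while Sgk1, a kinase induced by glucocorticoids, had 31.4 ± 6.77. Clock genes summed to 297 to 402 and held 0 of 10 genes at an SD of at least 0.5, beside 8.66% of all genes. Of 12 interferon response genes, 2 had a mean of at least 5, and the list summed to 25 to 49.9. Oligodendrocyte precursor genes summed to 34.3 to 62.8, meningeal fibroblast genes to 9.75 to 20.3, mural genes to 49.3 to 122, endothelial genes to 104 to 168, microglial genes to 333 to 647, GABA interneuron genes to 804 to 2475 (highest in batch 1 mice 4, 10 and 2, with 2475, 1908 and 1677) and midbrain dopamine neuron genes to a median of 9.73. The list of thalamic, septal or hypothalamic neuron genes summed to 14.6 to 158, and that of sex-linked genes to 23.1 to 33.8.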
